A study of Homo sapiens with 9 samples.

Results

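The nuclear genes for subunits of the 5 oxidative phosphorylation complexes were followed across 3 groups of FaDu libraries. They were taken as the protein-coding rows whose symbols start with NDUFA, NDUFB, NDUFC, NDUFS or NDUFV and a digit, are SDHA to SDHD, start with UQCR, start with COX4 to COX8, or start with ATP5. The rule found 90 of the 58735 genes in the table: 39 for complex I, 4 for complex II, 9 for complex III, 17 for complex IV and 21 for complex V. Symbols decided membership and no measured value did. The rule leaves out NDUFAB1 and CYC1, whose products are also subunits, and takes in ATP5S, ATP5IF1, COX7A2L and NDUFA4L2, which are a factor, an inhibitor, a supercomplex factor and a paralogue. By its symbol NDUFA4 is counted under complex I, although its product was found as a subunit of cytochrome c oxidase, complex IV.

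FaDu, a widely used human cell line from a squamous tumour of the hypopharynx, was grown and its RNA was measured by bulk sequencing in 9 libraries. By their labels, 3 libraries (KD_OE) carry both an AMIGO2 knockdown and a CAPN2 overexpression, 3 (KD_NC) carry the AMIGO2 knockdown, and 3 (NC_NC) are normal controls of wild-type genotype. AMIGO2 encodes a leucine-rich repeat protein of the cell surface and CAPN2 the catalytic subunit of calpain-2, and the labels give no other treatment. The constructs, the number of clones, the vectors behind the 2 NC labels and whether replicates came from separate cultures are not stated there, so the p-values measure the spread between these libraries.

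The knockdown label was not borne out by the level of its target. AMIGO2 stood at 42.8, 35.3 and 38.8 CPM in the libraries labelled KD_OE, 24.5, 31.2 and 27.3 CPM in those labelled KD_NC and 29.5, 26.1 and 27.2 CPM in those labelled NC_NC. The libraries labelled KD_NC overlapped those labelled NC_NC (log2 fold change 0.01, SE 0.115, edgeR adjusted p = 0.971), and the libraries labelled KD_OE were higher than those labelled NC_NC (log2 fold change 0.50, SE 0.114, edgeR adjusted p = 0.00106). CAPN2 stood at 498, 498 and 500.2 CPM in the libraries labelled KD_OE, 395, 424 and 435 CPM in those labelled KD_NC and 447, 474 and 466 CPM in those labelled NC_NC. It was higher in libraries labelled KD_OE than in those labelled KD_NC (log2 fold change 0.26, SE 0.0795, edgeR adjusted p = 0.012), a call lost without KD_OE replicate 1 (adjusted p = 0.0601) or with no filter on low counts (0.0871), and was not called against those labelled NC_NC (log2 fold change 0.11, SE 0.0794, edgeR adjusted p = 0.255). Every direction below is therefore one between labelled libraries.

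Complexes I to IV pass electrons from NADH and succinate to oxygen in the inner mitochondrial membrane, and complexes I, III and IV pump protons while they do so. Complex V, the ATP synthase, lets the protons back through its c-ring and makes ATP. Complexes I, III, IV and V combine subunits of the mitochondrial genome with the nuclear ones described here, whereas complex II is encoded in the nucleus alone.

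Library totals lay between 15158607 and 19737562 counts, and 16812 genes passed the filter on low counts. Levels are given as CPM, counts scaled to library size with TMM factors, on which 3 counts were worth between 0.149 and 0.203 CPM. All 9 squamous markers (KRT5, KRT14, KRT6A, KRT17, TP63, DSG3, SFN, EPCAM and CDH1) exceeded 1 CPM, and their summed level was 4664 to 5255 CPM in libraries labelled KD_OE, 4174 to 5259 in those labelled KD_NC and 7921 to 8416 in those labelled NC_NC. Of the markers of other cell types, COL1A1 alone of 6 fibroblast genes, CDH5 and VWF of 6 endothelial genes, and CD14 of 8 blood and immune genes exceeded 1 CPM, while LUM, KDR, MS4A1 and HBB had 0 counts. The summed fibroblast markers were 13.5 to 15.6 CPM in libraries labelled KD_OE, 11.0 to 14.0 in those labelled KD_NC and 8.19 to 9.73 in those labelled NC_NC. The endothelial ones were 16.2 to 16.8 CPM in libraries labelled KD_OE, 43.3 to 49.5 in those labelled KD_NC and 17.7 to 22.6 in those labelled NC_NC. The blood and immune ones were 5.68 to 9.06 CPM in libraries labelled KD_OE, 18.9 to 25.3 in those labelled KD_NC and 14.7 to 18.6 in those labelled NC_NC. Mitochondrial ribosomal RNA took 1.02% to 1.05% of counts in libraries labelled KD_OE, 0.877% to 1.08% in those labelled KD_NC and 0.537% to 0.583% in those labelled NC_NC. The genes behind the sums did not move together. In libraries labelled KD_NC against NC_NC, CDH5 was called higher (log2 fold change 1.54) and VWF lower (-1.21). In libraries labelled KD_OE against NC_NC, 5 of the 9 squamous markers fell, KRT14 and KRT5 among them. There 2 rose, CDH1 and DSG3, where 28.4% of all genes fell and 27.9% rose. The part of the shifts in these marker sums and in ribosomal RNA in the results below was not tested.

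Of the 90 subunit genes, 81 passed the filter. The 9 others were NDUFC2-KCTD14, COX4I2, COX6A2, COX6B2, COX7A1, COX7B2, COX8C, ATP5MF-PTCD1 and ATP5MGL, which held at most 53 counts in all 9 libraries together, and NDUFC2-KCTD14, COX6A2 and COX7B2 held 0. They comprise readthrough genes, a retrogene and isoforms known from muscle, lung or testis.

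Most nuclear subunit genes were lower in the libraries labelled KD_OE than in both other groups, in every complex. Against the libraries labelled NC_NC, 67 of the 81 tested members fell and 4 rose, where 28.4% of all 16812 genes fell and 27.9% rose (56.3% called in all). Against the libraries labelled KD_NC, 66 fell and 2 rose, where 25.6% of all genes fell and 23.7% rose (49.2% called in all). Between the libraries labelled KD_NC and NC_NC, 20 members were lower and 3 higher, where 18.5% of all genes were lower and 16.0% higher (34.6% called in all). These shares of all genes also stand beside the counts given below for single complexes, modules and lists. Between the libraries labelled KD_NC and NC_NC, from 22.2% (complex III) to 27.3% (complex IV) of the tested members of a complex were lower, near the 18.5% of all genes. Calls are edgeR quasi-likelihood tests at a Benjamini-Hochberg adjusted p under 0.05 over all 16812 genes. In bulk RNA, fewer cells of a kind and less of a transcript per cell cannot be told apart.

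The median member was 1.63-fold lower in libraries labelled KD_OE than in those labelled NC_NC (median log2 fold change -0.71 over the 81 members, 0.02 over all genes) and 1.47-fold lower than in those labelled KD_NC (-0.55, against 0.01 over all genes). Between the libraries labelled KD_NC and NC_NC the median was -0.15, against -0.01 over all genes. Of the members called lower, 23, 8 and 1 were at least 2-fold lower in these 3 comparisons. In libraries labelled KD_OE, 60 members fell against both other groups, and 17 of these also fell in libraries labelled KD_NC against those labelled NC_NC. The comparisons share libraries pairwise and are not independent of each other.

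The libraries of the KD_OE label kept apart from the others for most members. The groups KD_OE and NC_NC did not overlap in 66.9% of all genes, KD_OE and KD_NC in 54.0%, and KD_NC and NC_NC in 44.7%. In 70 of the 81 members, every library labelled KD_OE lay below every library labelled NC_NC, where 33.6% of all genes did. In 58, every library labelled KD_OE lay below every library labelled KD_NC, where 26.9% of all genes did. In 24, every library labelled KD_NC lay below every one labelled NC_NC, where 24.1% of all genes did.

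**Figure D1:**
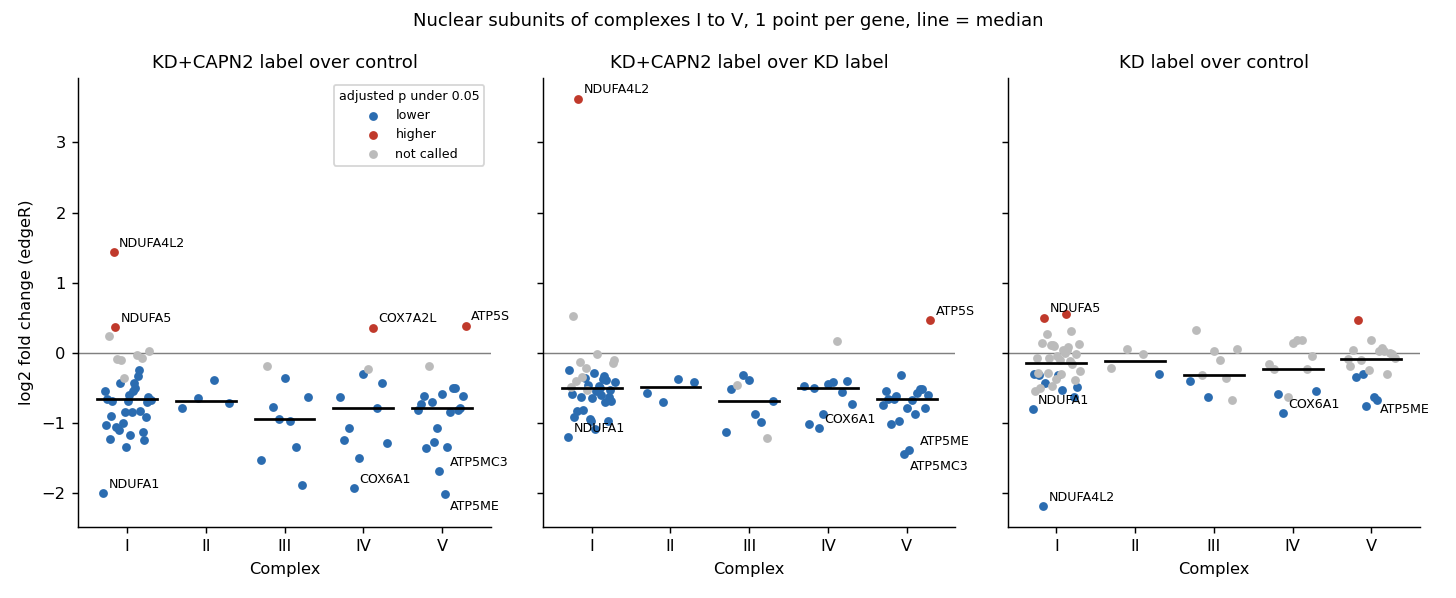
Log2 fold change of each tested member (points, spread sideways) by complex, from the edgeR fit, where KD+CAPN2 label, KD label and control stand for KD_OE, KD_NC and NC_NC. Blue and red points were called lower and higher at an adjusted p under 0.05, grey ones were not called, and short lines are medians. Against the libraries labelled NC_NC the medians of complexes I to V in libraries labelled KD_OE lay between -0.93 and -0.66, with NDUFA4L2 the highest point at 1.43.

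All members together took 0.559% ± 0.009% of all counts in libraries labelled KD_OE, 0.804% ± 0.081% in those labelled KD_NC and 0.856% ± 0.024% in those labelled NC_NC (SD, n = 3 each). Their summed level was 5357, 5417 and 5538 CPM in libraries labelled KD_OE, 7677, 7215 and 9160 CPM in those labelled KD_NC and 8583, 9221 and 8864 CPM in those labelled NC_NC. Every library labelled KD_OE was below every other library, and the libraries labelled KD_NC overlapped those labelled NC_NC. The sum of the libraries labelled KD_OE was 0.612 of that of the libraries labelled NC_NC and 0.678 of that of the libraries labelled KD_NC.

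The sums of all 5 complexes were lower in libraries labelled KD_OE. The ratio of summed levels, libraries labelled KD_OE over those labelled NC_NC, was 0.637 for complex I, 0.645 for complex II, 0.574 for complex III, 0.652 for complex IV and 0.584 for complex V. Over the libraries labelled KD_NC the ratios were 0.714, 0.706, 0.663, 0.721 and 0.633 in the same order, and for libraries labelled KD_NC over those labelled NC_NC they were 0.892, 0.913, 0.865, 0.905 and 0.922. Whether the complexes differ from one another was not tested.

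**Figure D2:**
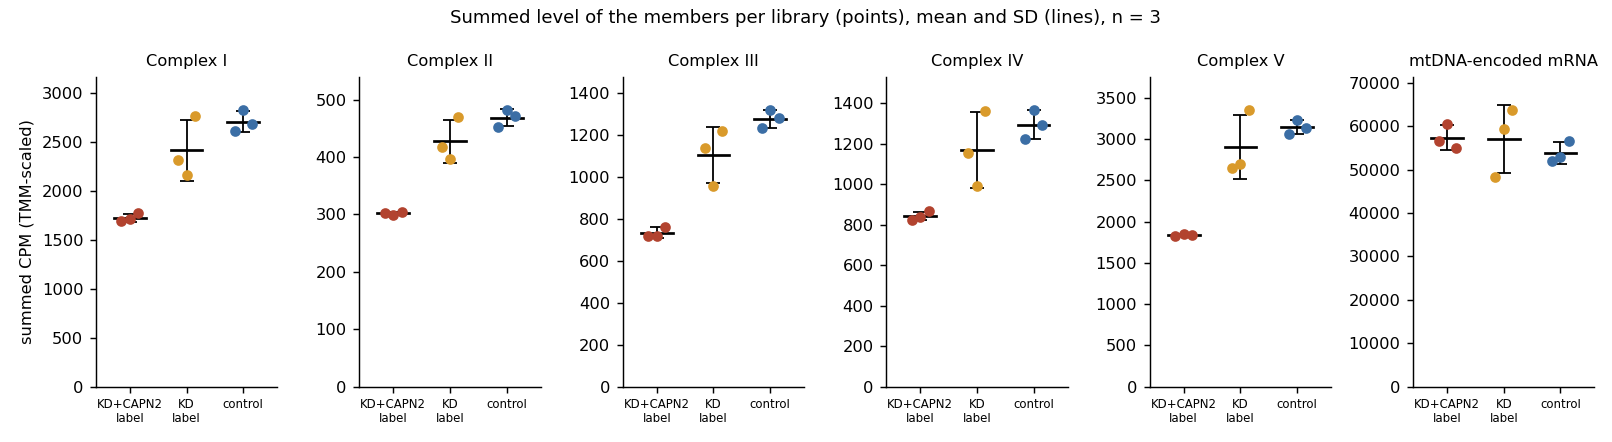
Summed level of the members of each complex in CPM (vertical axis from 0), 1 point per library, with lines for the mean and SD, where KD+CAPN2 label, KD label and control stand for KD_OE, KD_NC and NC_NC. The last panel holds the mitochondrial messenger RNAs. The 3 libraries labelled KD_OE lie lowest in each complex, and those labelled KD_NC spread most, with sums of 2165 to 2762 CPM for complex I.

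Many promoters of respiratory genes carry binding motifs of nuclear respiratory factor 1 (NRF1), of ETS factors such as GABP, and of YY1. The RefSeq windows from 250 bases before to 50 after each start (GRCh38.p14) were searched on both strands. The motifs were GCGCANGCG (NRF1), CCGGAAG (ETS factors) and AGATGGCGG (YY1). Windows were found for 68 of the 90 members, 81 windows in all. The NRF1 motif was in 27.2% of them, against 12.1% of 15263 windows of tested protein-coding genes and 7.52% of all 35116 windows. The ETS motif was in 25.9%, against 16.2% and 10.3% in the same order, and the YY1 motif in 12.3%, against 2.67% and 1.47%. A match describes the letters of a window and shows no binding. Of the 52 members with a window that fell in libraries labelled KD_OE against NC_NC, 35 had a match to at least 1 motif and 17 had none. Of the 2 that rose 1 had a match (NDUFA5, to the NRF1 motif), and of the 9 not called 3 had a match and 6 had none. The share of other genes with a match to any of the motifs was not counted, and a link between motif and fall was not tested. The 4 windows printed were picked to show each motif and a window without one, and do not stand for the members that fell or rose, with matches in capitals: UQCRC1 (chr3:48609597-48609896, minus strand) holds 2 NRF1 matches and 1 YY1 match, COX5B (chr2:97645812-97646111, plus strand) 2 ETS matches, ATP5ME (chr4:674227-674526, minus strand) 3 NRF1 matches and 1 ETS match, and COX7A2L (chr2:42361168-42361467, minus strand, 1 of its 2 windows) no match. No matches overlap in them.
UQCRC1: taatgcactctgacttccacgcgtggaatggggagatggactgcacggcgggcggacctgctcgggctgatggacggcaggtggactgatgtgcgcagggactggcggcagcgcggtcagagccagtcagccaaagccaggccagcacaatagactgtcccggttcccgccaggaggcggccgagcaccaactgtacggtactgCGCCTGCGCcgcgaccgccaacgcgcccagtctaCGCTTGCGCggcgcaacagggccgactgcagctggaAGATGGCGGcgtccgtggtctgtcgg
COX5B: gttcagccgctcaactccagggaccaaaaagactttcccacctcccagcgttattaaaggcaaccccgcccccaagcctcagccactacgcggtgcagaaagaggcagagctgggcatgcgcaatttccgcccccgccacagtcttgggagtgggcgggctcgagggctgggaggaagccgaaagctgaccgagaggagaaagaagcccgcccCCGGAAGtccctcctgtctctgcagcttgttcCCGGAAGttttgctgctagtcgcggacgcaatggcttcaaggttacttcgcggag
ATP5ME: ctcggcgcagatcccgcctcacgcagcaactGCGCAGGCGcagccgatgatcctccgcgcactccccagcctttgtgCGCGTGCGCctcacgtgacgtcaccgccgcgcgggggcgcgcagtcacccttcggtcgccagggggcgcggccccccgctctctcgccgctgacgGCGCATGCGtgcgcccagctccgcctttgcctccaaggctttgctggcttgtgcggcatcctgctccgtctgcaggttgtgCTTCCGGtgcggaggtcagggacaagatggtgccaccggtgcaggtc
COX7A2L: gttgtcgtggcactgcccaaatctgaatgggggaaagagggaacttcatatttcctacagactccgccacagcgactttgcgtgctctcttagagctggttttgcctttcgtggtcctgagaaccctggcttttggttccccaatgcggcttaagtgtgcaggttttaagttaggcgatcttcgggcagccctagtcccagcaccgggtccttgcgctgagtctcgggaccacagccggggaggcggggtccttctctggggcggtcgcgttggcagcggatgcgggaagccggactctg

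Complex I is built from a peripheral arm, whose N module takes electrons from NADH and whose Q module hands them to ubiquinone, and a membrane arm that pumps protons. Against the libraries labelled NC_NC, 29 of its 38 tested members fell in libraries labelled KD_OE (median log2 fold change -0.66). The 2 that rose were NDUFA5 and the paralogue NDUFA4L2. Against the libraries labelled KD_NC, 27 fell and 1 rose, NDUFA4L2 (median -0.49). NDUFA4 is counted among the falls of both comparisons. In libraries labelled KD_NC against those labelled NC_NC, 9 fell, NDUFA4L2 among them, and 2 rose (median -0.14), where 18.5% and 16.0% of all genes did. Of the 7 core subunits encoded in the nucleus, 6 fell and 0 rose in libraries labelled KD_OE against those labelled NC_NC.

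In the N module, 7 of 10 members fell in libraries labelled KD_OE against those labelled NC_NC and 0 rose. NDUFV1, which binds FMN and takes the electrons from NADH, stood at 261, 284 and 303 CPM in the libraries labelled KD_OE, 321, 276 and 335 CPM in those labelled KD_NC and 409, 469 and 426 CPM in those labelled NC_NC. Its level fell in libraries labelled KD_OE (log2 fold change -0.62, SE 0.0945, edgeR adjusted p = 1.58e-05) and in those labelled KD_NC (log2 fold change -0.48, SE 0.0942, edgeR adjusted p = 0.000587) against those labelled NC_NC. The libraries labelled KD_OE and KD_NC overlapped. NDUFS6, a zinc-binding accessory subunit (chromosome 5, 1801400 to 1816605, plus strand), fell in steps, with 28.7, 30.2 and 37.7 CPM in libraries labelled KD_OE, 58.02, 41.4 and 49.3 CPM in those labelled KD_NC and 74.5, 86.3 and 68.1 CPM in those labelled NC_NC. None of its 3 groups overlapped, and it was called in all 3 comparisons (KD_OE against NC_NC log2 fold change -1.25, SE 0.132, edgeR adjusted p = 1.89e-07).

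The accessory subunits NDUFA2 and NDUFA6 belong to the same module. NDUFA2 averaged 14.7 ± 0.841 CPM in libraries labelled KD_OE, 27.7 ± 4.20 in those labelled KD_NC and 34.4 ± 1.95 in those labelled NC_NC, and its fall in libraries labelled KD_OE was 2.34-fold against NC_NC and 1.88-fold against KD_NC. NDUFA6 fell 2.08-fold and 1.55-fold in the same comparisons. NDUFS1, the largest subunit, holding iron-sulfur clusters, changed less, with a log2 fold change of -0.33 against NC_NC and -0.37 against KD_NC. NDUFV2, NDUFS4 and NDUFA7 were not called against the libraries labelled NC_NC, with log2 fold changes of 0.03, -0.07 and -0.08. NDUFA7 held 127 counts in all 9 libraries together (SE 0.431), so a fall like that of the median member could have gone uncalled.

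In the Q module, 5 of 6 members fell in libraries labelled KD_OE against those labelled NC_NC, and NDUFA5 rose. NDUFS8, a core subunit that carries electrons towards ubiquinone, fell by 0.70 on the log2 scale. NDUFS3, a core subunit of the same module, stood at 42.1, 41.5 and 41.1 CPM in the libraries labelled KD_OE, 61.9, 63.3 and 78.04 CPM in those labelled KD_NC and 68.05, 77.5 and 74.9 CPM in those labelled NC_NC. The libraries labelled KD_OE differed among themselves by less than 1 CPM and lay below all others (log2 fold change -0.82, SE 0.103, edgeR adjusted p = 1.58e-06).

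In the proximal part of the membrane arm, 7 of 9 members fell in libraries labelled KD_OE against those labelled NC_NC. NDUFA1 (X chromosome, 119871487 to 119876662, plus strand), a small membrane subunit needed for complex I assembly, stood at 19.7, 18.8 and 19.3 CPM in the libraries labelled KD_OE, 62.5, 28.8 and 41.7 CPM in those labelled KD_NC and 73.8, 85.05 and 71.8 CPM in those labelled NC_NC. The 3 groups did not overlap, and the libraries labelled KD_NC spread over more than 2-fold. The fall in libraries labelled KD_OE was 3.99-fold against NC_NC (log2 fold change -1.997, SE 0.218, edgeR adjusted p = 6.8e-06) and 2.29-fold against KD_NC. NDUFA1 shares 44.5% of its exon bases with RNF113A on the other strand, which held 30.7% as many counts and stood at 9.999, 11.99 and 9.73 CPM in the libraries labelled KD_OE, 16.5, 11.00 and 14.7 CPM in those labelled KD_NC and 17.6, 19.3 and 17.8 CPM in those labelled NC_NC. NDUFS5 averaged 85.5 ± 3.21 CPM in libraries labelled KD_OE, 167 ± 38.9 in those labelled KD_NC and 186 ± 9.36 in those labelled NC_NC (log2 fold change -1.12, SE 0.122, edgeR adjusted p = 2.6e-07). NDUFA8 and NDUFA10 fell in libraries labelled KD_OE against NC_NC (-1.09 and -0.54) and against KD_NC (-0.81 and -0.24). The NDUFA10 call against KD_NC was lost with upper-quartile factors (adjusted p = 0.0634) and without KD_OE replicate 2 (adjusted p = 0.0707). NDUFA13 and NDUFC2 were not called in libraries labelled KD_OE against NC_NC (0.24 and -0.03), and NDUFA13 held 256 counts in all 9 libraries together (SE 0.309).

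In the distal part, with NDUFAB1 added from outside the rule, 10 of 12 genes fell and 0 rose in libraries labelled KD_OE against those labelled NC_NC. NDUFB6 stood at 14.1, 10.99 and 12.2 CPM in the libraries labelled KD_OE, 22.4, 26.1 and 30.2 CPM in those labelled KD_NC and 26.2, 29.5 and 28.2 CPM in those labelled NC_NC. The libraries labelled KD_OE lay below all others, which overlapped each other, and the fall was 2.25-fold against NC_NC and 2.11-fold against KD_NC (log2 fold change -1.08, SE 0.132, edgeR adjusted p = 1.91e-06). NDUFB2 fell in libraries labelled KD_OE against KD_NC by nearly as much (log2 fold change -0.94, SE 0.114, edgeR adjusted p = 1.91e-06). NDUFB2 shares 27.9% of its exon bases with BRAF on the other strand, which held 76.4% as many counts. NDUFB5 had log2 fold changes of -0.60 for KD_OE against NC_NC, -0.29 for KD_OE against KD_NC and -0.31 for KD_NC against NC_NC. Its first call held in all alternatives. The second was lost in 7, among them upper-quartile factors (adjusted p = 0.0923), total counts (0.0601) and the compared groups alone (0.0674), and without KD_NC replicate 3 or KD_OE replicate 2 or 3 (adjusted p = 0.0761 to 0.218). The third was lost in 10, among them the same scalings (0.0597 and 0.0677) and the compared groups alone (0.078), and without KD_NC replicate 1 or 2, KD_OE replicate 1 or 2 or NC_NC replicate 1 or 2 (adjusted p = 0.0506 to 0.148). NDUFB8 fell in libraries labelled KD_OE against NC_NC (-0.55), a call lost with upper-quartile factors (adjusted p = 0.0511) and without KD_OE replicate 1 (adjusted p = 0.0913) or NC_NC replicate 2 (0.124). It held 882 counts and shares 16.3% of its exon bases with HIF1AN on the other strand, which held 16504. HIF1AN had log2 fold changes of -0.37 for KD_OE against NC_NC, 0.06 for KD_OE against KD_NC and -0.43 for KD_NC against NC_NC. Those of NDUFB8 were -0.55, -0.01 and -0.53. The part of HIF1AN in the NDUFB8 counts was not tested. NDUFAB1, the mitochondrial acyl carrier protein, fell by 0.79 and 0.98 on the log2 scale in libraries labelled KD_OE against NC_NC and KD_NC. NDUFB1 and NDUFB11 were not called against NC_NC, with log2 fold changes of -0.10 and -0.35. NDUFB11, with 9106 counts, shares 44.9% of its exon bases with RBM10 on the other strand, which held 10092.

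Complex II, the succinate dehydrogenase shared with the citric acid cycle, fell in all 4 of its genes in libraries labelled KD_OE against both other groups. SDHA, the flavoprotein that oxidises succinate, stood at 92.7, 102 and 113 CPM in the libraries labelled KD_OE, 162, 135 and 159.8 CPM in those labelled KD_NC and 170.5, 182 and 179 CPM in those labelled NC_NC (log2 fold change -0.79, SE 0.0957, edgeR adjusted p = 1.07e-06). SDHB, the iron-sulfur subunit, stood at 50.2, 44.6 and 46.8 CPM in the libraries labelled KD_OE, 69.9, 67.98 and 92.7 CPM in those labelled KD_NC and 69.7, 75.9 and 75.1 CPM in those labelled NC_NC (log2 fold change -0.64, SE 0.112, edgeR adjusted p = 7.59e-05). In both genes every library labelled KD_OE lay below every other library. Reads of the SDHA pseudogenes equalled 14.7% of the SDHA counts.

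The membrane anchors SDHC and SDHD hold the ubiquinone site. SDHC stood at 94.4, 92.6 and 91.7 CPM in the libraries labelled KD_OE, 114, 121 and 125 CPM in those labelled KD_NC and 115, 129.8 and 118 CPM in those labelled NC_NC, the smallest fall of complex II (log2 fold change -0.38, SE 0.0853, edgeR adjusted p = 0.000886). SDHD stood at 64.8, 59.2 and 53.2 CPM in the libraries labelled KD_OE, 71.8, 71.3 and 91.99 CPM in those labelled KD_NC and 97.5, 93.95 and 98.8 CPM in those labelled NC_NC. It fell against NC_NC in libraries labelled KD_OE (log2 fold change -0.71, SE 0.108, edgeR adjusted p = 1.46e-05) and in those labelled KD_NC (log2 fold change -0.31, SE 0.106, edgeR adjusted p = 0.0319). The second call was lost in 10 alternatives, among them upper-quartile factors (adjusted p = 0.0571), total counts (0.0677), the compared groups alone (0.0683) and without KD_NC replicate 1 or 2, KD_OE replicate 1 or NC_NC replicate 1, 2 or 3 (adjusted p = 0.0554 to 0.16).

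Complex III, the cytochrome bc1 complex, had the lowest median of the 5 complexes in libraries labelled KD_OE against those labelled NC_NC, with 8 of 9 members lower, 0 higher and a median log2 fold change of -0.93. Against those labelled KD_NC, 7 fell (median -0.68). In libraries labelled KD_NC against those labelled NC_NC 2 fell (median -0.32), where 18.5% of all genes did. UQCRC1, a core subunit related to the mitochondrial processing peptidase, stood at 122, 125 and 136 CPM in the libraries labelled KD_OE, 137, 150.3 and 187 CPM in those labelled KD_NC and 231, 244 and 257 CPM in those labelled NC_NC. Its 3 groups did not overlap (log2 fold change -0.93, SE 0.104, edgeR adjusted p = 3.39e-07 for KD_OE against NC_NC, -0.62 for KD_NC against NC_NC). It also fell against KD_NC (log2 fold change -0.31, SE 0.103, edgeR adjusted p = 0.018), a call lost without KD_NC replicate 3 (adjusted p = 0.0867) or KD_OE replicate 1 or 2 (0.0528 and 0.065).

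UQCRFS1, the Rieske iron-sulfur protein, was 1.97-fold lower in libraries labelled KD_OE than in those labelled NC_NC, with 91.9, 88.95 and 87.7 CPM in the libraries labelled KD_OE, 138, 164 and 192 CPM in those labelled KD_NC and 163, 192 and 174 CPM in those labelled NC_NC. The libraries labelled KD_NC overlapped those labelled NC_NC. UQCR10, a small subunit near cytochrome c1 (chromosome 22, 29767369 to 29770413, plus strand), stood at 14.6, 14.1 and 16.3 CPM in the libraries labelled KD_OE, 35.7, 27.97 and 34.2 CPM in those labelled KD_NC and 42.3, 48.3 and 38.7 CPM in those labelled NC_NC. No groups overlapped, and it fell 2.88-fold in libraries labelled KD_OE against NC_NC (log2 fold change -1.52, SE 0.124, edgeR adjusted p = 5.77e-09) and 2.17-fold against KD_NC (log2 fold change -1.12, SE 0.124, edgeR adjusted p = 5.68e-07). UQCRC2, the other core subunit, showed a smaller fall (log2 fold change -0.36), and UQCR11 was not called against NC_NC (-0.19).

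UQCRH, the hinge protein that contacts cytochrome c1, stood at 85.4, 88.7 and 104 CPM in the libraries labelled KD_OE, 236, 123 and 191 CPM in those labelled KD_NC and 223, 259.8 and 218 CPM in those labelled NC_NC. It fell in libraries labelled KD_OE against NC_NC (log2 fold change -1.33, SE 0.190, edgeR adjusted p = 8.27e-05) and KD_NC (log2 fold change -0.98, SE 0.189, edgeR adjusted p = 0.00108), and KD_NC library 2 was near 123 CPM where the other two held 236 and 191. UQCRHL, an intronless copy of UQCRH, held 2.78, 3.37 and 4.10 CPM in libraries labelled KD_OE, 14.3, 2.39 and 7.38 CPM in those labelled KD_NC and 11.6, 12.7 and 13.6 CPM in those labelled NC_NC. Its reads may be split with UQCRH by the counting. Its fall against NC_NC (log2 fold change -1.88, SE 0.560, edgeR adjusted p = 0.0222) lost its call in 7 of 19 alternatives, among them without KD_OE replicate 1, 2 or 3 or NC_NC replicate 2 or 3 (adjusted p = 0.0584 to 0.078).

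Complex IV, cytochrome c oxidase, had 11 tested members, of which 9 fell and 1 rose in libraries labelled KD_OE against those labelled NC_NC (median log2 fold change -0.78). Against those labelled KD_NC 10 fell and 0 rose (median -0.50). In libraries labelled KD_NC against those labelled NC_NC 3 fell (median -0.22), where 18.5% of all genes did. COX5A, a subunit on the matrix side, stood at 50.2, 52.9 and 48.1 CPM in the libraries labelled KD_OE, 113, 81.8 and 111 CPM in those labelled KD_NC and 112, 122 and 124 CPM in those labelled NC_NC. The libraries labelled KD_OE lay below all others, and the fall was 2.37-fold against NC_NC (log2 fold change -1.24, SE 0.112, edgeR adjusted p = 2.27e-08) and 2.02-fold against KD_NC (log2 fold change -1.01, SE 0.112, edgeR adjusted p = 5.22e-07).

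COX8A, the common form of a small membrane subunit (chromosome 11, 63974607 to 63976543, plus strand), stood at 20.7, 20.6 and 20.6 CPM in the libraries labelled KD_OE, 34.02, 32.9 and 35.7 CPM in those labelled KD_NC and 49.6, 54.2 and 45.9 CPM in those labelled NC_NC. The 3 groups were apart, and the spread within the libraries labelled KD_OE was 0.0697 CPM (SD). All 3 comparisons were called, with log2 fold changes of -1.28 for KD_OE against NC_NC, -0.73 for KD_OE against KD_NC and -0.55 for KD_NC against NC_NC. COX4I1, the common form of regulatory subunit IV, stood at 230.3, 239 and 251 CPM in the libraries labelled KD_OE, 339, 280.2 and 384 CPM in those labelled KD_NC and 346, 389 and 381 CPM in those labelled NC_NC (log2 fold change -0.63, SE 0.102, edgeR adjusted p = 3.19e-05). COX5B, the zinc-binding subunit, was 2.10-fold lower in libraries labelled KD_OE than in those labelled NC_NC, and its libraries labelled KD_OE overlapped KD_NC library 2.

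The largest falls of complex IV were those of COX6A1 and COX6B1. COX6A1 (chromosome 12, 120438090 to 120440742, plus strand), a regulatory subunit facing the intermembrane space, stood at 13.3, 14.7 and 16.5 CPM in the libraries labelled KD_OE, 44.04, 19.4 and 30.2 CPM in those labelled KD_NC and 56.1, 64.7 and 48.7 CPM in those labelled NC_NC. Every library labelled KD_OE lay below every other library (log2 fold change -1.93, SE 0.250, edgeR adjusted p = 5.4e-05). The libraries labelled KD_NC spread over more than 2-fold, and reads of its pseudogenes equalled 17.1% of its counts. COX6B1, which lies at the dimer interface, stood at 27.3, 29.1 and 26.4 CPM in the libraries labelled KD_OE, 68.7, 27.97 and 55.2 CPM in those labelled KD_NC and 76.5, 80.5 and 76.7 CPM in those labelled NC_NC (log2 fold change -1.50, SE 0.265, edgeR adjusted p = 0.000939). Here KD_NC library 2 lay among the libraries labelled KD_OE, and the call against KD_NC was lost without KD_NC replicate 3 (adjusted p = 0.0786) or without any 1 library labelled KD_OE (0.0514 to 0.0864).

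Complex V, the ATP synthase, had 17 of 19 tested members lower and 1 higher in libraries labelled KD_OE against those labelled NC_NC (median log2 fold change -0.79). Against those labelled KD_NC, 18 fell and 1 rose (median -0.66). In libraries labelled KD_NC against those labelled NC_NC, 5 fell and 1 rose (median -0.08), where 18.5% and 16.0% of all genes did. ATP5F1A and ATP5F1B form the catalytic hexamer of the F1 head. ATP5F1B, with the highest level per kilobase of exon of all members, stood at 564, 579 and 583 CPM in the libraries labelled KD_OE, 778, 803 and 931 CPM in those labelled KD_NC and 908, 976 and 969.5 CPM in those labelled NC_NC (log2 fold change -0.72, SE 0.0873, edgeR adjusted p = 9.6e-07). ATP5F1A averaged 297 ± 5.87 CPM in libraries labelled KD_OE, 495 ± 70.9 in those labelled KD_NC and 523 ± 13.6 in those labelled NC_NC (log2 fold change -0.82, SE 0.0955, edgeR adjusted p = 6.52e-07).

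The central stalk turns inside that head. Its delta subunit gene ATP5F1D stood at 34.3, 36.9 and 38.3 CPM in the libraries labelled KD_OE, 73.7, 59.4 and 86.9 CPM in those labelled KD_NC and 90.1, 95.2 and 93.9 CPM in those labelled NC_NC. All 3 groups were apart, with a fall of 2.55-fold in libraries labelled KD_OE against NC_NC and 2.01-fold against KD_NC. The fall in libraries labelled KD_NC against NC_NC (log2 -0.35) lost its call in 6 alternatives, among them the correction for GC content and length (adjusted p = 0.542). The same call was lost without KD_NC replicate 2 or NC_NC replicate 2 or 3 (adjusted p = 0.0688 to 0.174). ATP5F1E, for the epsilon subunit, stood at 132, 124 and 133 CPM in the libraries labelled KD_OE, 162, 196 and 256 CPM in those labelled KD_NC and 145, 154 and 146 CPM in those labelled NC_NC. It rose in libraries labelled KD_NC against NC_NC (log2 fold change 0.47, SE 0.119, edgeR adjusted p = 0.00497), a call lost with the correction for GC content and length (0.392), fell in those labelled KD_OE against KD_NC (log2 fold change -0.66, SE 0.119, edgeR adjusted p = 0.000144), and was not called in those labelled KD_OE against NC_NC (-0.19).

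The c-ring, the rotor through which protons pass, is made from ATP5MC1, ATP5MC2 and ATP5MC3, 3 genes for the same mature peptide. Their summed level was 194.6, 198.7 and 202.6 CPM in libraries labelled KD_OE, 405.3, 338.5 and 465.6 CPM in those labelled KD_NC and 514.4, 553.5 and 507.5 CPM in those labelled NC_NC. The groups did not overlap, and the sum in libraries labelled KD_OE was 0.378 of that in those labelled NC_NC and 0.493 of that in those labelled KD_NC. ATP5MC3 (chromosome 2, 175176258 to 175184607, minus strand) stood at 87.3, 90.9 and 80.9 CPM in the libraries labelled KD_OE, 236, 197 and 268 CPM in those labelled KD_NC and 267, 288 and 276 CPM in those labelled NC_NC (log2 fold change -1.68, SE 0.104, edgeR adjusted p = 1.75e-10, and log2 fold change -1.44, SE 0.103, edgeR adjusted p = 2.07e-09 against KD_NC).

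The other two c-ring genes also fell in libraries labelled KD_OE against both other groups. ATP5MC1 averaged 41.5 ± 1.48 CPM in libraries labelled KD_OE, 81.3 ± 13.9 in those labelled KD_NC and 99.9 ± 7.70 in those labelled NC_NC, with a log2 fold change of -0.97 for KD_OE against KD_NC and -0.30 for KD_NC against NC_NC, the second of which lost its call in 13 alternatives, among them without KD_NC replicate 1 or 2, KD_OE replicate 1 or 2 or NC_NC replicate 1, 2 or 3 (adjusted p = 0.055 to 0.209). ATP5MC2 averaged 70.8 ± 6.86 CPM in libraries labelled KD_OE, 87.8 ± 16.4 in those labelled KD_NC and 148 ± 11.8 in those labelled NC_NC. Its fall in libraries labelled KD_NC against NC_NC held in all alternatives (log2 fold change -0.76, SE 0.119, edgeR adjusted p = 7.67e-05), and that in libraries labelled KD_OE against KD_NC (-0.31) lost its call in 8, among them without KD_NC replicate 1 or 3 or KD_OE replicate 1 or 2 (adjusted p = 0.0947 to 0.164). Whether the genes differ in these steps was not tested.

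Of the membrane supernumerary subunits, all 5 tested fell in libraries labelled KD_OE against both other groups. ATP5ME, subunit e, which helps join synthase dimers (chromosome 4, 672436 to 674338, minus strand, on the strand of the printed window), stood at 3.09, 3.37 and 3.49 CPM in the libraries labelled KD_OE, 9.96, 6.32 and 9.84 CPM in those labelled KD_NC and 11.97, 14.1 and 13.96 CPM in those labelled NC_NC. No groups overlapped, and at 4.02-fold (log2 fold change -2.01, SE 0.185, edgeR adjusted p = 3.16e-08) its fall in libraries labelled KD_OE against NC_NC was the largest of the 81 members. ATP5ME shares 61.6% of its exon bases with MYL5 on the other strand, which held 16.3% as many counts. ATP5MF, subunit f, fell 2.54-fold and ATP5MG, subunit g, 1.79-fold in the same comparison.

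The peripheral stalk, which holds the head still, fell in all 4 genes in libraries labelled KD_OE against both other groups and in 0 of 4 in libraries labelled KD_NC against NC_NC. ATP5PF stood at 27.9, 30.4 and 28.4 CPM in the libraries labelled KD_OE, 45.6, 46.8 and 57.5 CPM in those labelled KD_NC and 49.2, 49.8 and 50.9 CPM in those labelled NC_NC, with those labelled KD_NC spanning those labelled NC_NC and all above those labelled KD_OE (log2 fold change -0.79, SE 0.105, edgeR adjusted p = 3.39e-06). ATP5PF shares 20.2% of its exon bases with GABPA on the other strand, which held 57.9% as many counts. Against KD_NC the ATP5PD call was lost without KD_NC replicate 3 (adjusted p = 0.0638) or KD_OE replicate 2 (0.0525). ATP5PB, ATP5PD and ATP5PO had log2 fold changes of -0.49, -0.81 and -0.61 in libraries labelled KD_OE against NC_NC. ATP5IF1, an inhibitor that blocks ATP hydrolysis by the enzyme, fell with the subunits, at 32.1, 30.6 and 33.6 CPM in the libraries labelled KD_OE, 48.6, 41.01 and 57.01 CPM in those labelled KD_NC and 50.1, 55.7 and 51.1 CPM in those labelled NC_NC (log2 fold change -0.71, SE 0.114, edgeR adjusted p = 3.11e-05).

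**Figure D3:**
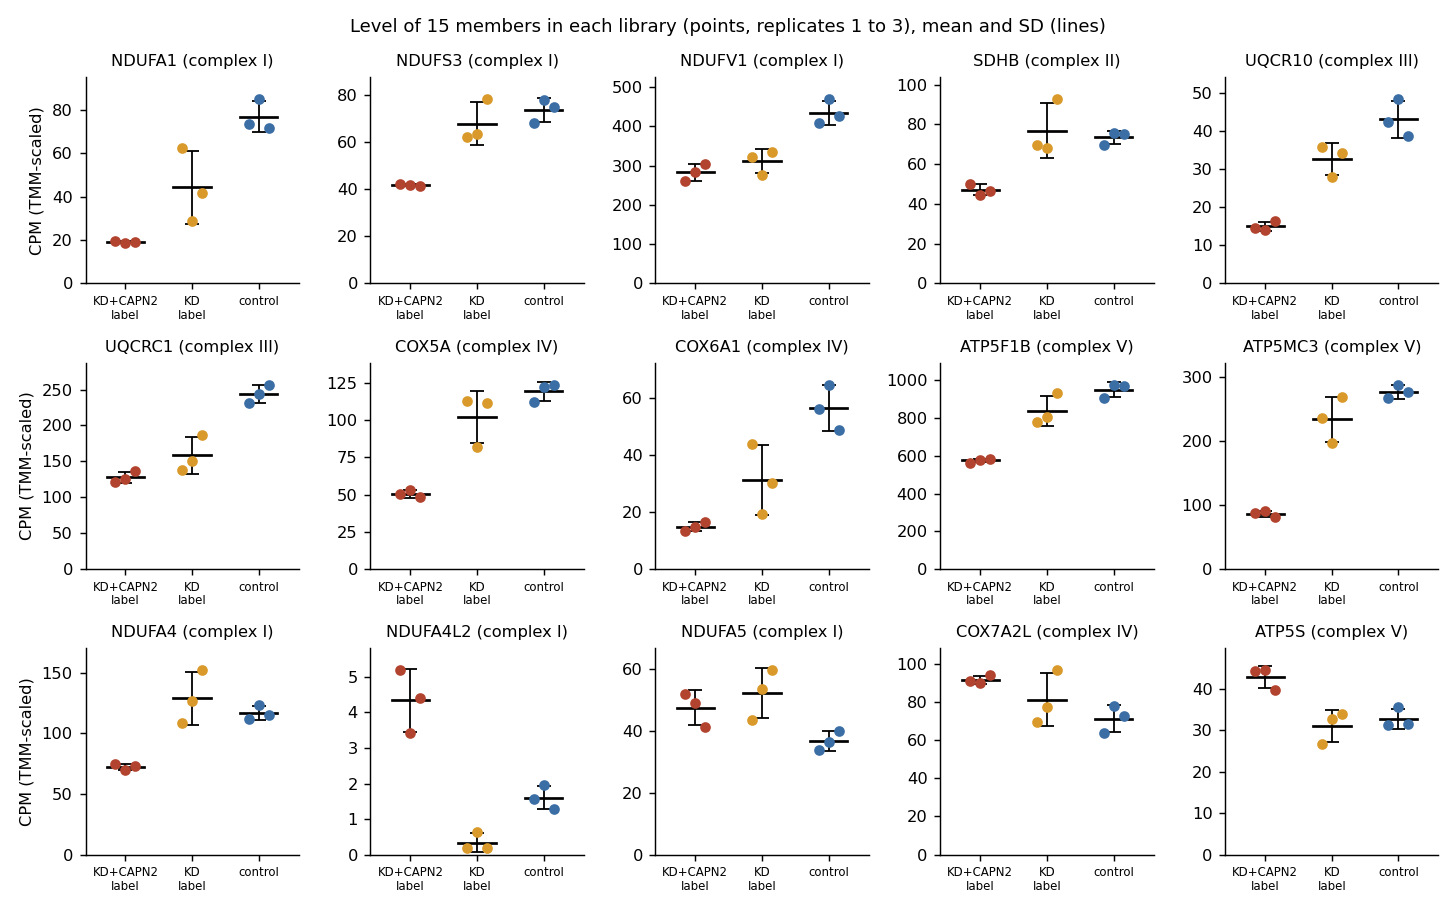
Level in CPM (vertical axes from 0) of 15 members in each of the 9 libraries (points), with lines for the mean and SD, where KD+CAPN2 label, KD label and control stand for KD_OE, KD_NC and NC_NC. UQCR10 and NDUFA1 show 3 groups without overlap, NDUFV1 shows overlap of the libraries labelled KD_OE and KD_NC, and NDUFA4L2, NDUFA5, COX7A2L and ATP5S are higher in libraries labelled KD_OE than in those labelled NC_NC.

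Few members rose. NDUFA4L2 (chromosome 12, 57234903 to 57240715, minus strand), a paralogue of NDUFA4 known as a target of hypoxia-inducible factor, stood at 5.18, 3.43 and 4.41 CPM in the libraries labelled KD_OE, 0.175, 0.647 and 0.176 CPM in those labelled KD_NC and 1.56, 1.95 and 1.29 CPM in those labelled NC_NC. The groups did not overlap, with the libraries labelled KD_OE highest and those labelled KD_NC lowest. It rose 12.3-fold in libraries labelled KD_OE against KD_NC (log2 fold change 3.62, SE 0.387, edgeR adjusted p = 3.69e-07) and 2.70-fold against NC_NC (log2 fold change 1.43, SE 0.314, edgeR adjusted p = 0.000704), and fell in libraries labelled KD_NC against NC_NC (log2 fold change -2.19, SE 0.427, edgeR adjusted p = 0.000606). It held 310 counts in all, and 2 of the 3 libraries labelled KD_NC held about as much as 3 counts are worth, so the fold against KD_NC rests on few counts. Without KD_NC replicate 2 the log2 fold changes were 4.53 for KD_OE against KD_NC and -3.11 for KD_NC against NC_NC.

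NDUFA4L2 shares 33 exon bases with SHMT2 on the other strand, which held 58684 counts, and reads without strand cannot be told apart there. SHMT2, a serine hydroxymethyltransferase of mitochondria, stood at 472, 460.2 and 525 CPM in the libraries labelled KD_OE, 285, 239 and 310.1 CPM in those labelled KD_NC and 387, 432 and 408 CPM in those labelled NC_NC and moved in the same directions by less (0.80 for KD_OE against KD_NC, 0.25 for KD_OE against NC_NC and -0.56 for KD_NC against NC_NC on the log2 scale). Its part in the NDUFA4L2 counts was not tested. NDUFA4, found as a subunit of cytochrome c oxidase despite its name, was 1.61-fold lower in libraries labelled KD_OE than in those labelled NC_NC.

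COX7A2L, a factor that joins complex III and complex IV in supercomplexes (chromosome 2, 42333546 to 42425088, minus strand), stood at 90.8, 89.8 and 94.2 CPM in the libraries labelled KD_OE, 69.7, 77.2 and 96.6 CPM in those labelled KD_NC and 63.6, 77.9 and 72.5 CPM in those labelled NC_NC. It rose in libraries labelled KD_OE against NC_NC without overlap (log2 fold change 0.36, SE 0.112, edgeR adjusted p = 0.01). That call was lost with the correction for GC content and length (adjusted p = 0.129), with that correction and the replicate block (0.0532) and without NC_NC replicate 1 (0.0806). ATP5S, a factor named for the synthase and distinct from its structural subunits, averaged 42.8 ± 2.64 CPM in libraries labelled KD_OE, 31.03 ± 3.86 in those labelled KD_NC and 32.7 ± 2.39 in those labelled NC_NC. Its rise in libraries labelled KD_OE (0.39 against NC_NC, edgeR adjusted p = 0.0056) turned to -0.115 with the correction for GC content and length (0.411).

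NDUFA5, an accessory subunit of the Q module, stood at 51.97, 49.1 and 41.2 CPM in the libraries labelled KD_OE, 43.4, 53.4 and 59.5 CPM in those labelled KD_NC and 33.8, 36.2 and 39.98 CPM in those labelled NC_NC. It rose against NC_NC in libraries labelled KD_OE (log2 fold change 0.37, SE 0.122, edgeR adjusted p = 0.0146) and in those labelled KD_NC (log2 fold change 0.50, SE 0.121, edgeR adjusted p = 0.00328), while the libraries labelled KD_OE and KD_NC overlapped. With correction for GC content and length applied, the first turned to -0.0855 (adjusted p = 0.402) and the second lost its call (0.161). The first was also lost without KD_OE replicate 1 (adjusted p = 0.0791), KD_OE replicate 2 (0.0569) or NC_NC replicate 1 (0.0825). NDUFC2 rose in libraries labelled KD_NC against NC_NC (log2 fold change 0.56, SE 0.198, edgeR adjusted p = 0.0367) with overlapping groups, and lost its call in 7 alternatives, among them without KD_NC replicate 2 or 3, KD_OE replicate 2 or NC_NC replicate 1 or 2 (adjusted p = 0.0522 to 0.175). With that correction 1 member, NDUFA4L2, remained among those that rose in libraries labelled KD_OE against NC_NC.

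The tissue isoforms, 15 genes with forms known from muscle, lung, testis or hypoxic cells beside their common forms, included 9 that were tested. Of these, 6 fell and 2 rose (COX7A2L and NDUFA4L2) in libraries labelled KD_OE against NC_NC, where 28.4% and 27.9% of all genes did. COX7A2, the form found outside muscle, stood at 77.5, 76.4 and 83.5 CPM in the libraries labelled KD_OE, 81.3, 107 and 128 CPM in those labelled KD_NC and 86.3, 98.4 and 93.7 CPM in those labelled NC_NC. It was not called in libraries labelled KD_OE against NC_NC (log2 fold change -0.23, SE 0.123, edgeR adjusted p = 0.12) and fell against KD_NC (log2 fold change -0.41, SE 0.123, edgeR adjusted p = 0.0089), a call lost without KD_NC replicate 3 (adjusted p = 0.0622). The untested COX6B2, known from testis, was at 0.494, 0.532 and 0.551 CPM in libraries labelled KD_OE, 0.233, 0.0995 and 0.527 CPM in those labelled KD_NC and 0, 0.177 and 0.0615 CPM in those labelled NC_NC, and COX7A1, the muscle form, between 0.0589 and 0.879 CPM over all 9.

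Levels between genes were compared per kilobase of deposited gene length, which equals the joined exons of all annotated transcripts, as means over the 9 libraries. In complex V, ATP5F1B stood at 339 CPM per kilobase, ATP5MD at 82.4 and ATP5S at 3.14. In complex I the highest were NDUFS5 at 266 and NDUFV1 at 67.8 CPM per kilobase, and the lowest NDUFA7 at 0.588. UQCRH at 121, UQCRQ at 73.1 and UQCRHL at 3.68 bounded complex III, and COX7C at 102, COX8A at 68.8 and COX7B at 13.8 complex IV. In complex II, SDHD at 27.5 and SDHB at 26.8 were above SDHC at 7.86 CPM per kilobase. The order depends on the length used. Per kilobase of 1 principal transcript per gene, NDUFS5 stood at 266, NDUFS8 at 219 and NDUFV1 at 136 in complex I. By that length COX4I1 stood at 361, COX7C at 128 and COX8A at 68.8 in complex IV. SDHA then stood at 60.2, SDHB at 57.1 and SDHD at 54.2, while ATP5F1B at 429 and UQCRH at 281 stayed highest in complexes V and III.

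The libraries labelled KD_NC were the least alike. The median coefficient of variation over the 81 members was 6.22% in libraries labelled KD_OE, 17.8% in those labelled KD_NC and 6.04% in those labelled NC_NC. KD_NC library 2 was the lowest of its group in 48 members (59.3%, against 33.5% of all genes) and KD_NC library 3 the highest in 61 (75.3%, against 34.6%). In 16 members (19.8%, against 9.77% of all genes) KD_NC library 2 lay below 0.7 of the mean of the other two, with ratios of 0.221 for UQCRHL, 0.451 for COX6B1, 0.488 for NDUFA3 and 0.501 for NDUFB10. The principal transcripts of these 16 had a median length of 708 bases and a median GC content of 53.6%, against 1256 bases and 47.5% in the 65 others. NDUFB7 at 0.696 was just inside that limit and ATP5MC2 at 0.712 just outside it.

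**Figure D4:**
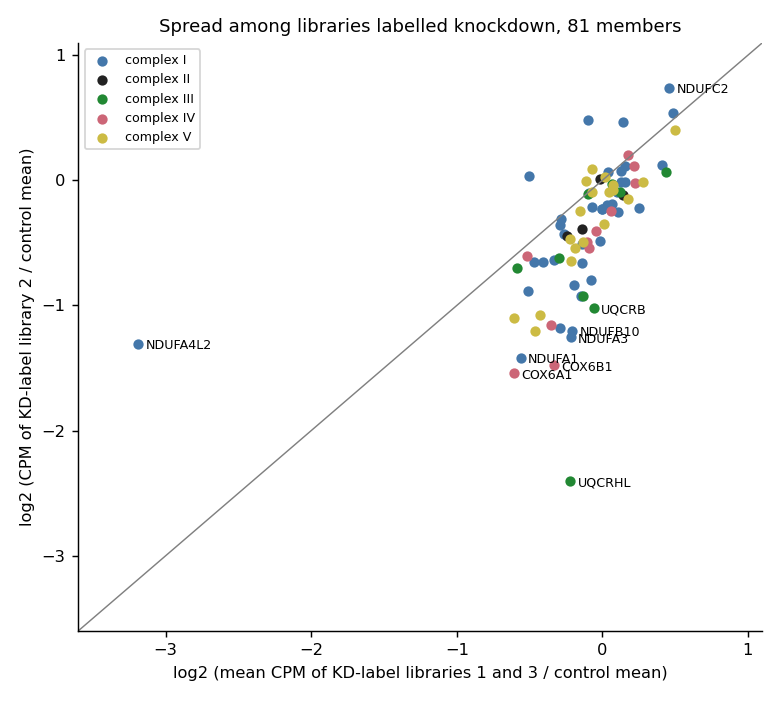
Log2 level of each tested member in KD_NC library 2 (vertical axis) and the mean of KD_NC libraries 1 and 3 (horizontal axis), each over the mean of the libraries labelled NC_NC, coloured by complex. The diagonal marks equality. UQCRHL, COX6B1, NDUFA3 and NDUFB10 lie far below the diagonal, at ratios of 0.221 to 0.501.

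The counts for the libraries labelled KD_NC rested on single libraries. Without KD_NC replicate 2, 13 members in place of 20 were lower than in those labelled NC_NC, without NC_NC replicate 2 it was 10, and without KD_NC replicate 3 it was 30, while without KD_NC replicate 1 the number higher was 6 in place of 3. For libraries labelled KD_OE against KD_NC, 71 fell without KD_NC replicate 2 and 53 without KD_NC replicate 3, and for libraries labelled KD_OE against NC_NC the number that fell stayed between 63 and 70 whichever library was left out.

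Across members, the log2 fold change of libraries labelled KD_NC against NC_NC was lower where the transcript had more GC (Spearman rho -0.46 over 81 members, -0.365 over 16802 genes with a sequence). For libraries labelled KD_OE against KD_NC rho was -0.017 over the members and -0.086 over all genes, and for libraries labelled KD_OE against NC_NC -0.279 and -0.291. With transcript length, rho over the members was 0.248 for KD_NC against NC_NC, 0.257 for KD_OE against KD_NC and 0.318 for KD_OE against NC_NC. Over all genes it was 0.0506, 0.0922 and 0.0989 in the same order. The median principal transcript had 1082 bases in the members and 2745 in all genes. These values describe genes that share libraries. The part of GC content and length in the differences was not tested beyond the correction for both. Under it the median of the members was -0.756 for KD_OE against NC_NC.

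The genes for cytochrome c1, a subunit, and for the carrier cytochrome c, both outside the rule, also fell in libraries labelled KD_OE. CYC1, cytochrome c1 of complex III, stood at 79.8, 87.3 and 97.96 CPM in the libraries labelled KD_OE, 138, 119 and 134 CPM in those labelled KD_NC and 181, 205 and 182 CPM in those labelled NC_NC. Its 3 groups did not overlap, and it fell in libraries labelled KD_OE against NC_NC (log2 fold change -1.10, SE 0.0974, edgeR adjusted p = 1.86e-08) and KD_NC (log2 fold change -0.56, SE 0.0970, edgeR adjusted p = 9.34e-05). CYCS, the soluble cytochrome c, stood at 134, 136 and 131 CPM in the libraries labelled KD_OE, 199, 192 and 228 CPM in those labelled KD_NC and 224, 195 and 216 CPM in those labelled NC_NC, with the libraries labelled KD_OE below all others (log2 fold change -0.66, SE 0.0897, edgeR adjusted p = 4.25e-06).

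Assembly factors, which help build the complexes without staying in them, were called lower in part. In libraries labelled KD_OE against NC_NC, 8 of 19 complex I factors fell and 2 rose, 3 of 4 of complex II fell, 4 of 6 of complex III fell, 10 of 21 of complex IV fell and 1 rose, and 3 of 3 of complex V fell, where 28.4% of all genes fell and 27.9% rose. UQCC3, a complex III factor, fell by 2.16 on the log2 scale and COA7, a complex IV factor, fell as well (log2 fold change -1.39, SE 0.0875, edgeR adjusted p = 2.29e-10), and both also fell in libraries labelled KD_NC against NC_NC (-1.72 and -0.79). BCS1L, which inserts the Rieske protein, fell by 0.91, and TMEM70, needed for the c-ring of the synthase, by 0.96. The complex I factors ACAD9 and ECSIT fell by 0.85 and 0.88, and NUBPL and TMEM126B rose by 0.40 and 0.44. Both calls were lost with the correction for GC content and length (adjusted p = 0.371 and 0.615), under which TMEM126B turned to -0.0554. COX20, which handles the mitochondrially encoded COX2, rose (log2 fold change 0.77) and averaged 3.64 ± 0.964 CPM in libraries labelled KD_OE and 2.12 ± 0.293 CPM in those labelled NC_NC. Its call was lost without KD_OE replicate 1 or 2 or NC_NC replicate 1 or 2 (adjusted p = 0.0558 to 0.095) and with that correction (0.0528). DMAC1, DMAC2 and NDUFAF8 of complex I, SDHAF1 and SDHAF3 of complex II, UQCC1 and UQCC2 of complex III, SCO1 and CMC2 of complex IV, and ATPAF1 and ATPAF2 of complex V also fell in libraries labelled KD_OE against NC_NC, with log2 fold changes between -0.91 and -0.29. With upper-quartile factors and total counts the calls of UQCC1 (adjusted p = 0.105 and 0.09), UQCC2 (0.0811 and 0.0751) and ATPAF1 (0.0839 and 0.0648) were lost. The UQCC1 call was also lost without KD_OE replicate 3 (adjusted p = 0.0604) or NC_NC replicate 3 (0.055). The UQCC2 call was also lost with the correction for GC content and length (0.0844) and without KD_OE replicate 1 or 2 or NC_NC replicate 1 or 2 (adjusted p = 0.0577 to 0.096). UQCC2 was also lower in libraries labelled KD_NC against NC_NC, at -0.914 to -0.532 on the log2 scale over the 19 alternatives. For KD_OE against KD_NC its values there were above 0 (0.0963 to 0.477), with a call in 4 alternatives.

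Of 13 regulators of respiratory genes, 12 were tested. In libraries labelled KD_OE against NC_NC 9 fell and 1 rose (median log2 fold change -0.63), where 28.4% and 27.9% of all genes did. Against KD_NC 5 fell and 1 rose, where 25.6% and 23.7% of all genes did. In libraries labelled KD_NC against NC_NC 8 fell and 0 rose (median -0.41), where 18.5% and 16.0% of all genes did. ESRRA, an orphan nuclear receptor of mitochondrial genes, stood at 50.5, 51.4 and 57.7 CPM in the libraries labelled KD_OE, 62.2, 48.03 and 57.8 CPM in those labelled KD_NC and 102, 113 and 106 CPM in those labelled NC_NC. Both groups with the knockdown label lay below NC_NC without overlap and were not called against each other (log2 fold change -1.01, SE 0.103, edgeR adjusted p = 1.27e-07; KD_OE against KD_NC -0.07, adjusted p = 0.593). PPRC1, a coactivator related to PGC-1, stood at 90.9, 93.6 and 96.2 CPM in the libraries labelled KD_OE, 129, 126 and 111 CPM in those labelled KD_NC and 174, 178 and 157 CPM in those labelled NC_NC and fell in all 3 comparisons (log2 fold change -0.86, SE 0.0891, edgeR adjusted p = 1.44e-07).

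The factors whose motifs were searched moved in different directions. NRF1 fell by 0.66 and YY1 by 0.61 on the log2 scale in libraries labelled KD_OE against NC_NC, whereas GABPA, the DNA-binding subunit of GABP, rose (log2 fold change 0.50, SE 0.130, edgeR adjusted p = 0.00299) and turned to -0.0676 with the correction for GC content and length (adjusted p = 0.533). TFAM, which packs mitochondrial DNA and starts its transcription, stood at 130.5, 122 and 106 CPM in the libraries labelled KD_OE, 145, 173 and 167 CPM in those labelled KD_NC and 161, 148 and 155 CPM in those labelled NC_NC and fell in libraries labelled KD_OE against both other groups (log2 fold change -0.37, SE 0.0965, edgeR adjusted p = 0.00292).

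Messenger RNAs of the mitochondrial genome, which encode the other subunits of complexes I, III, IV and V, were called in shares near those of all genes. Of 13, 4 rose and 3 fell in libraries labelled KD_OE against NC_NC (median log2 fold change 0.10), where 27.9% of all genes rose and 28.4% fell. They took 5.65% to 6.20% of counts in libraries labelled KD_OE, 4.93% to 6.20% in those labelled KD_NC and 5.06% to 5.42% in those labelled NC_NC. MT-CO3 and MT-ND3 fell by 0.63 and 0.70, and MT-ATP8 and MT-ND4L rose by 0.84 and 0.43. Both rises lost their calls with the correction for GC content and length (adjusted p = 0.436 and 0.47). MT-ATP8 and MT-ND4L overlap MT-ATP6 and MT-ND4 in sequence, so their counts depend on how shared reads were assigned.

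**Figure D5:**
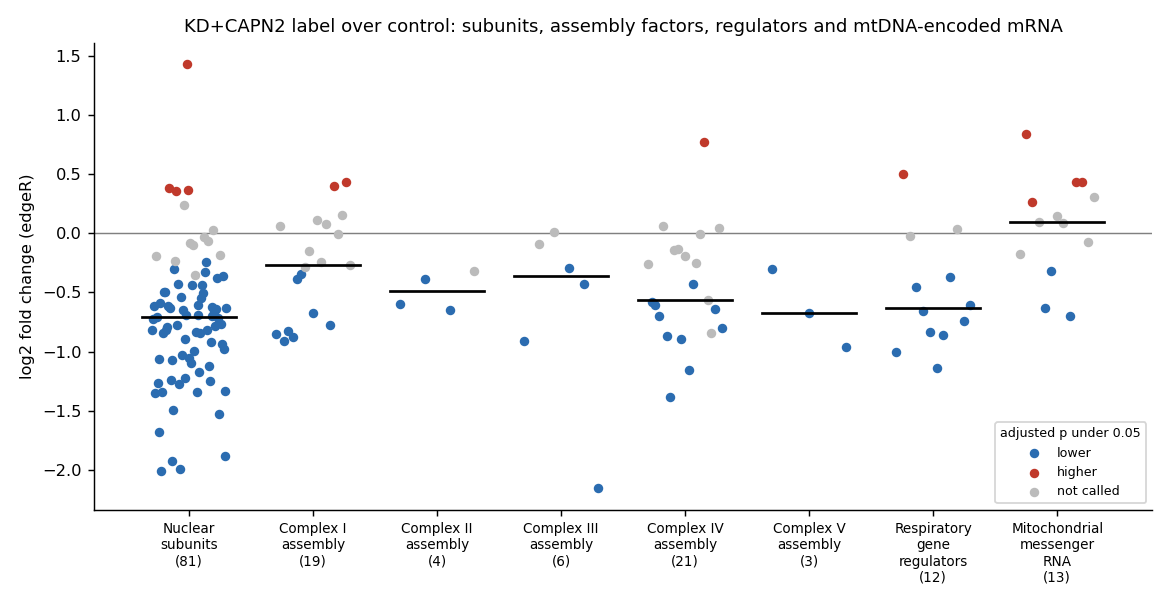
Log2 fold change (vertical axis) of the nuclear subunits, the assembly factors by complex, the regulators and the mitochondrial messenger RNAs in libraries labelled KD_OE (KD+CAPN2 label) over those labelled NC_NC (control), 1 point per gene, coloured by call, with medians as lines and the number tested in brackets. Points lie mostly below 0 for assembly factors and regulators, and on both sides for mitochondrial messenger RNAs, where MT-ATP8 is highest at 0.84.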

How the data were processed

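Bulk RNA sequencing of FaDu cells gave 9 libraries, 3 per label, grouped by their GEO labels. The authors deposited 1 table of raw read counts per gene. The submitters' processing notes list featureCounts 1.5.0-p3, HISAT2 2.0.5 and StringTie 1.3.3b as tools, and hg19 as build, with no roles. The deposited coordinates equal those of GENCODE release 29 on GRCh38 for 58735 of 58735 genes, and coordinates are printed as deposited. Per the labels' protocols, TRIzol RNA went into NEBNext Ultra libraries. Counting by strand is not given in the sources used here, so reads of genes on opposite strands may be shared. The 25 members with an exon-sharing partner of at least 10% of their own level, and the 45 members with pseudogenes (159 pseudogene rows), are uncertain to that extent.

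Genes were kept by edgeR's filter on low counts (minimum 10), scaled by TMM and tested with edgeR 4.0.16 (R 4.3.3) by its robust quasi-likelihood test with all 9 libraries in 1 fit, 6 residual degrees of freedom and Benjamini-Hochberg adjustment over 16812 genes at 0.05. Log2 fold changes are the first-named group over the second. The script was tested on simulated data. Alternatives were median-of-ratios and upper-quartile factors, total counts, no filter, DESeq2 1.42.0, the compared groups alone, a replicate block, corrections for GC content and length, added pseudogene counts, and each library left out.

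The members, gene lists and motifs were chosen with earlier results of these data known, and the NRF1 and YY1 motifs were shortened by 1 letter after longer forms had been counted. Named by rule were AMIGO2 and CAPN2, the SDH genes, per comparison and complex up to 3 called members in each direction with the lowest adjusted p at a mean of at least 5 CPM, per complex the 2 highest and 1 lowest per kilobase, the tissue isoforms, ATP5IF1, CYC1 and CYCS, and up to 2 called genes per direction and comparison in the other lists. ATP5PD, ATP5PO, NDUFA3, NDUFA13, NDUFB1, NDUFB7, NDUFB10, NDUFB11, NDUFS1, NDUFS4, NDUFV2, UQCR11, UQCRC2, NRF1, YY1 and the members with the largest falls were added after their values were seen. Some results are not reported here.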

Additional observations from a re-analysis of the deposited data

How the results depend on the processing

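The counts and medians for libraries labelled KD_OE against either other group kept their direction under all 19 alternatives. The median log2 fold change for KD_OE against NC_NC, -0.705, was -0.602 with upper-quartile factors, -0.609 with total counts, -0.756 with the correction for GC content and length and -0.758 with that correction and the replicate block, where the first 2 scalings put the median of all genes at 0.126 and 0.119. The members higher for KD_OE against NC_NC numbered 1 in place of 4 with the GC and length correction, with or without the block, and for KD_OE against KD_NC 1 in place of 2. NDUFA5 for KD_OE against NC_NC turned to -0.0855 with the correction and -0.0807 with correction and block, ATP5S to -0.115 and -0.111, TMEM126B to -0.0554 and -0.0546, and GABPA to -0.0676 and -0.0674. For KD_NC against NC_NC, NDUFS8 turned to 0.218 and 0.211 and TFAM to -0.195 and -0.195, past the threshold. For KD_NC against NC_NC, complex II had 0 calls in place of 1 with upper-quartile factors, total counts, the compared groups alone or the replicate block, complex IV 6 in place of 3 with the correction with or without the block, and complexes III and V 4 and 2 in place of 2 and 6 with correction and block. With total counts, 56.5% of all calls for KD_NC against NC_NC were higher, against 46.4% with TMM. The cause was not tested.

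With 1 library left out, members called for KD_NC against NC_NC ranged from 2 to 6 higher and 10 to 30 lower, and from 7 to 17 in complex I, 0 to 1 in complex II, 1 to 5 in complex III, 1 to 7 in complex IV and 3 to 8 in complex V. The median for KD_OE against KD_NC ranged from -0.727 to -0.443. For KD_OE against NC_NC it ranged from -0.745 to -0.704, and the members higher from 2 to 4. The alternatives gave 6612 values of 116 genes (the 81 tested members and 35 named others). Of these, 6229 kept their call or their lack of one, 251 lost the call and 120 gained it. The other 12 reversed in sign with a call before or after. Changes of sign without a call counted as kept, as for ATP5F1A in KD_NC against NC_NC (-0.19 to 0.0187).

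Deviations of same-numbered libraries of different groups correlated between -0.111 and 0.063, and those of differently numbered ones between -0.186 and 0.132. The labels do not state whether same-numbered libraries belong together, and these correlations cannot settle it. With the replicate block, 3 members were higher and 18 lower for KD_NC against NC_NC, 2 and 66 for KD_OE against KD_NC, and 4 and 68 for KD_OE against NC_NC. The block also ended the calls of SDHD (adjusted p = 0.0509), NDUFB5 (0.057), NDUFA2 (0.0605) and NRF1 (0.0596) for KD_NC against NC_NC, and of NDUFB5 (0.0682), ATP5MC2 (0.0542) and GABPA (0.0699) for KD_OE against KD_NC. For KD_NC against NC_NC the call of NDUFA2 was lost in 15 of the 19 alternatives and that of NRF1 in 12.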
